A study of Rattus norvegicus with 6 samples.

Results

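The transcripts described here mark white blood cells and the macrophages and lymphocytes that reside in the kidney. They were 39 genes chosen by symbol, in 4 classes: 8 general leukocyte markers, 16 myeloid markers, 13 markers of T and natural killer (NK) cells and 2 mast cell markers. They were read by exact name from a table of 27321 features, in which 35 of the 39 had a row of their own. Cd4 and Cd37 were present only inside features that merge overlapping genes, and Mrc1 and Fcgr2b were not analysed here. RNA had been sequenced from the inner medullary tip (IM tip), where the longest collecting ducts of the kidney end, of male Sprague-Dawley rats aged 3 months. The control group (3 libraries) received vehicle by tail vein, and the STZ group (3 libraries) received streptozotocin at 62.5 mg/kg, a toxin of pancreatic beta cells that makes rats diabetic, with tissue taken 15 days after the injection. The groups shared strain, sex and age, and whether a library held tissue of more than 1 rat is not given in the sources used here. The study was designed around genes for glycosylation of the urea transporter UT-A1, and the comparison of leukocyte markers asks whether transcripts of immune cells differed between the groups in the same libraries.

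Leukocytes are recognised in tissue RNA by genes taken as their markers, but which cells made each transcript here was not tested. Ptprc encodes CD45, the phosphatase on nearly every white blood cell; macrophages depend on the growth factor receptor Csf1r and on the transcription factor PU.1, encoded by Spi1; T cells carry an antigen receptor whose signal passes through the CD3 chains and the kinases Lck and Zap70; and NK and cytotoxic T cells store perforin and granzymes. The healthy kidney holds resident macrophages and dendritic cells in its interstitium, and macrophages are known to gather in the diabetic kidney. The libraries are of whole tissue, so fewer cells of a type and less RNA per cell cannot be told apart. The sources do not say that blood was flushed from the kidneys, and white cells in vessels and in the interstitium enter the same RNA.

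None of the leukocyte markers passed the test between control and STZ rats. Of the 31 markers with enough reads to test, 0 were called by limma at an adjusted p under 0.05, while 2.10% of all 13486 features tested were called. At an unadjusted p under 0.05 there was 1 marker, Cd14, which is 3.23% of the 31 beside 14.7% of all features. On the recovered reads edgeR called 0 members and DESeq2 called 1, Cd14, with 4.43% of all features called by DESeq2. Cd14, the co-receptor for bacterial lipopolysaccharide, was lower in every STZ library than in every control library, with a mean of 139 ± 7.31 against 227 ± 12.8 normalized counts (SD, n = 3 each), or 0.614 of the control mean. The other markers of macrophages, T cells and leukocytes in general did not pass under any setting that gave them an adjusted p. Some low markers, Cd68, Itgam and Itgax among them, had none with DESeq2. The number with a positive fold change, 21 of 31, became 10 when only control replicate 1 was left out.

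The unit of every level is the normalized count, the number of reads on a feature divided by 1 size factor for its library. Per library, 1 read equalled 0.763 to 1.11 normalized counts, and the libraries held between 3412311 and 5575171 reads on features. Because the length of each transcript is not removed, levels are compared between libraries for 1 gene and not between genes. Log2 fold changes are STZ minus control on the log2(normalized count + 1) scale, with the standard error (SE) and the Benjamini-Hochberg adjusted p of limma; a feature was tested if its mean over the 6 libraries was at least 5. As a background level, 835 olfactory receptor genes, which kidney is not known to use at high level, had a 95th percentile from 1.86 normalized counts in STZ replicate 1 to 10.02 in control replicate 3. Of the 35 markers with a row, 20 were above that level of the same library in all 6 libraries. These were 6 of the 7 general, 10 of the 14 myeloid, 4 of the 12 T and NK and 0 of the 2 mast cell markers. Lane and group cannot be told apart, since lane 3 carried all control libraries and lanes 7, 6 and 8 carried 1 STZ library each. The presence of collecting duct was checked on 13 collecting duct markers, all of which were tested. Their summed level was 48813 to 74681 normalized counts in control and 63136 to 99782 in STZ libraries, and Fxyd4, a regulator of the sodium pump, was at 21951 to 46287. These levels do not tell the IM tip from other kidney regions that hold collecting ducts. Slc12a1, listed for the thick limb, was at 636 to 691 in control and 123 to 463 in STZ libraries.

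Control replicate 1 stood apart from the other libraries in these genes. The median marker was at 0.440 of its own 6-library mean in control replicate 1, against 1.18 and 1.22 in the other controls and 0.842, 0.945 and 1.18 in the STZ libraries. The median over all features tested lay between 0.970 and 0.981 in every library. DESeq size factors are medians of ratios over features, so the normalization itself holds that median nearly level. General, myeloid and T and NK markers were all low there, with class medians of 0.439, 0.440 and 0.511. Control replicate 1 was the lowest of the 6 libraries for 5 of 6 general, 10 of 13 myeloid, 3 of 11 T and NK and 1 of 1 mast cell markers, in all 19 of 31 (61.3%), while it was the lowest for 17.9% of all features. With all 6 libraries the median log2 fold change of the 31 markers was 0.15, with 21 positive and 10 negative, beside a median of 0.006 and 50.5% positive over all features. Without control replicate 1 the median was -0.23, with 10 positive and 21 negative, beside -0.02 over 13670 features, and again 0 markers were called. In the same library the summed level of 10 red cell and platelet genes was 9168 normalized counts, against 2207 to 5348 in the other 5, and the part of blood content in the marker levels was not tested.

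**Figure D1:**
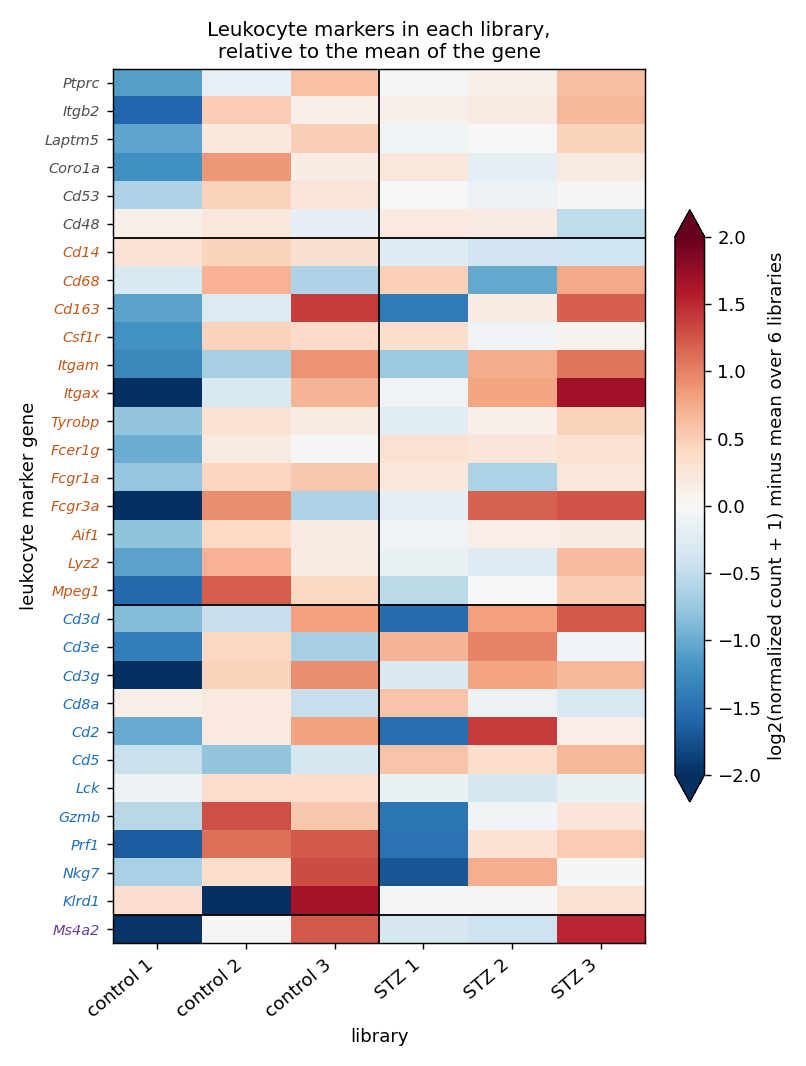
Heat map of the tested markers (rows, by class) in the 6 libraries (columns), coloured by log2(normalized count + 1) minus the gene's mean over the 6 libraries, blue for lower and red for higher. Control replicate 1 is the lowest library for 19 of the 31 markers, and Cd14 is red in all 3 control and blue in all 3 STZ libraries.

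The start regions of 4 markers are shown because the results turn on these genes: Cd14, the marker nearest to a call; Csf1r and Lyz2, macrophage genes that were lowest in control replicate 1; and Cd48, which varied little. Each is 300 bases from 250 before to 50 after the start of the gene, 5′ to 3′ on the gene's strand, from RefSeq on the GRCr8 assembly. Cd14 is at chr18:28611109-28611408 (minus strand), Csf1r at chr18:56834129-56834428 (plus), Lyz2 at chr7:54797962-54798261 (minus) and Cd48 at chr13:86717744-86718043 (plus). Capitals mark GAGGAA, a core bound by PU.1, or its reverse complement TTCCTC, searched on both strands with no overlap between matches.
Cd14: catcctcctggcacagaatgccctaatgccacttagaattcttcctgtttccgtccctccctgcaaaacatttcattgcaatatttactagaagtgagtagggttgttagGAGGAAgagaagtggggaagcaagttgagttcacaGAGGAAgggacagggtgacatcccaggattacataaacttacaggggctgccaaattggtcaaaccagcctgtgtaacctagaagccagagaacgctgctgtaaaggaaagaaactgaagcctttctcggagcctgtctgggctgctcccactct
Csf1r: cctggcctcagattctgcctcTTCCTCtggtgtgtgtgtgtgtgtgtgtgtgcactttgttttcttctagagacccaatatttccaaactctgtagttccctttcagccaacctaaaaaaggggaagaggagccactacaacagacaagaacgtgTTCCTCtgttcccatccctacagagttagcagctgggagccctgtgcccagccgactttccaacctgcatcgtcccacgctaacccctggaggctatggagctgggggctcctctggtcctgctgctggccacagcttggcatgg
Lyz2: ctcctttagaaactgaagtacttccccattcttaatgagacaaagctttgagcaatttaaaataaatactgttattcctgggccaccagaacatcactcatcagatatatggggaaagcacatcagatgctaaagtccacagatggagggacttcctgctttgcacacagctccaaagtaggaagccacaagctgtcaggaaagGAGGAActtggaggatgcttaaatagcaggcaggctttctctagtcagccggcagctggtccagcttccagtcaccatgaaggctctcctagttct
Cd48: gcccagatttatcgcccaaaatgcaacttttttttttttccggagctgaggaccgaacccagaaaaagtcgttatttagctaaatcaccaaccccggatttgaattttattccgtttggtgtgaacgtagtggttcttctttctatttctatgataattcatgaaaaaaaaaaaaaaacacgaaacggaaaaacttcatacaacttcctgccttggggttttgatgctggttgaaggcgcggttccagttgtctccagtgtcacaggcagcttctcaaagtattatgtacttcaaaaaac
The matches began 140 and 105 bases before the start in Cd14, 229 and 95 bases before it in Csf1r and 46 bases before it in Lyz2, and Cd48 held none in this window. Of the 39 markers 29 had a start region in that set. The 6 letters occurred in 7 of 10 myeloid regions (70%), 4 of 7 general (57.1%), 3 of 11 T and NK (27.3%) and 1 of 1 mast cell regions, while 27.5% of all 27457 start regions of the same length held them. A match describes the letters and is not evidence of binding.

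The general leukocyte markers gave no call in 6 tested of 8. Ptprc (chr13:51246163-51357995 on rn4) was at 35.9, 70.2 and 118 normalized counts in the control group, in the order of replicates 1, 2 and 3 used throughout, and at 77.1, 84.1 and 119 in the STZ group. The groups overlapped, with control replicate 1 lowest and the replicates numbered 3 highest in both groups. Its log2 fold change was 0.45 (adjusted p = 0.667, SE 0.37), and it was 0.01 without control replicate 1. Itgb2, the shared chain of the leukocyte integrins, was at 5.13, 25.2 and 18.9 in control and 18.6, 19.8 and 28.1 in STZ libraries, where control replicate 1 lay far under the other 5 libraries. Its log2 fold change was 0.63 (adjusted p = 0.660, SE 0.51), the largest of the class. Laptm5, a lysosomal membrane protein of blood cells that limits receptor levels, was at 73.8, 178 and 217 in control and 146, 154 and 210 in STZ libraries. Coro1a, an actin-binding coronin, was at 9.23, 42.7 and 25.6 against 26.9, 19.8 and 26.1, and Cd53, a tetraspanin of leukocytes, at 38.96, 83.9 and 72.4 against 60.4, 55.4 and 61.2. In these 3 genes the STZ values lay inside the control range, and the log2 fold changes of 0.24, 0.13 and -0.07 had adjusted p-values of 0.861, 0.952 and 0.963.

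Cd48, a surface ligand of the SLAM receptor family, varied less between libraries than the other general markers. At chr13:87684508-87708088 on rn4 it was at 2296, 2487 and 1863 normalized counts in control and 2446, 2421 and 1506 in STZ libraries. Control replicate 1 was not low here, at 1.06 of the gene's mean, and which cells made the Cd48 reads was not tested. The highest library was 1.65 times the lowest, against 3.33 times for Ptprc. The log2 fold change was -0.08 with a 95% interval from -0.60 to 0.43 (adjusted p = 0.936, SE 0.23), so that a 2-fold difference between the groups lies outside the interval. Summed over the other 6 general markers with a row, control libraries were at 163, 400 and 456 and STZ libraries at 331, 334 and 449, a mean of 339.9 ± 156 against 371 ± 67.2 (SD, n = 3 each). Cd52, a small lipid-anchored glycoprotein of lymphocytes, was under the level tested, at 0, 0 and 4.45 in control and 1.86, 0.9891 and 4.02 in STZ libraries. Cd37, a tetraspanin of B cells and other leukocytes, was counted only with Tead2, a transcription factor of the Hippo pathway that many tissues use. The merged feature was at 21.5, 48.1 and 42.3 in control and 40.9, 35.6 and 49.2 in STZ libraries, with a log2 fold change of 0.23 (adjusted p = 0.853, SE 0.32), and its reads cannot be assigned to either gene.

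Cd14 was the only myeloid marker near a call. The feature at chr18:29374596-29376328 on rn4 was at 216, 241 and 223 normalized counts in the control group and at 148, 136 and 135 in the STZ group. The lowest control library lay above the highest STZ library, and within each group the libraries were close together. The log2 fold change was -0.70 (SE 0.18, 95% interval -1.09 to -0.31), with an unadjusted p of 0.002 and an adjusted p of 0.0751 by limma. A two-sided exact permutation test of 3 against 3 libraries gave p = 0.1, the smallest it can give. It was run only on markers whose groups did not overlap, where it always gives that value, so it adds nothing to the separation. Cd14 was called in 3 of 17 alternatives, namely DESeq2 (adjusted p = 0.0286), quantile normalization (adjusted p = 0.0404, with 3.87% of all features called) and a minimum mean of 20 (adjusted p = 0.0496, with 4.32% called). Over all 17 the adjusted p ran from 0.0286 to 0.263 and the log2 fold change from -0.74 to -0.65. Control replicate 1, which was low in most myeloid markers, was at 1.18 of the gene's mean for Cd14, and without it the log2 fold change was -0.73 (adjusted p = 0.133). Whether the Cd14 reads came from myeloid cells was not tested.

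**Figure D2:**
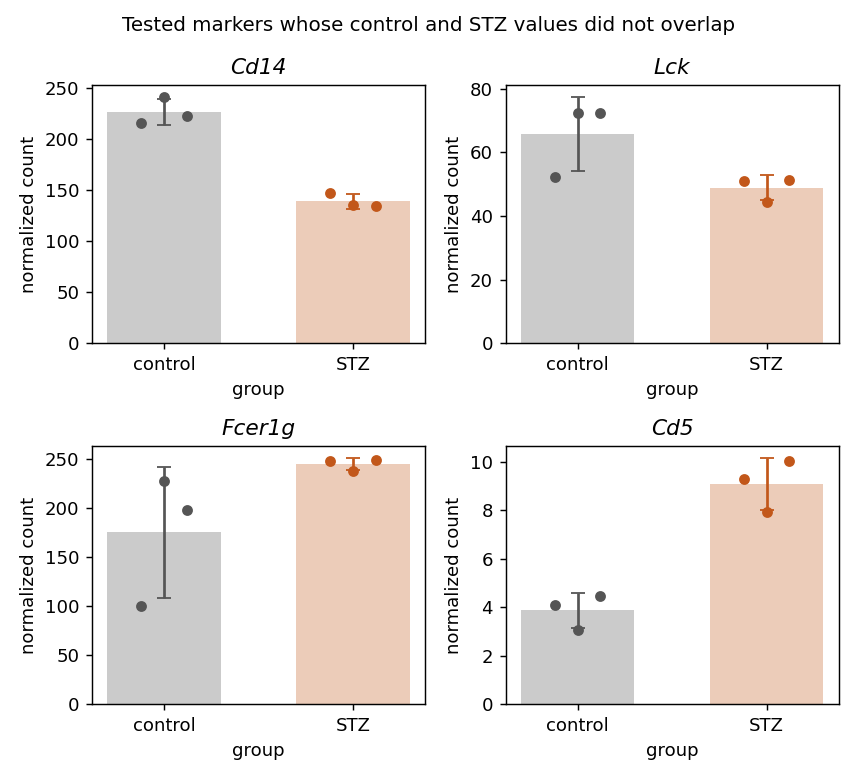
Normalized counts of the 4 tested markers whose control and STZ values did not overlap; points are single libraries, bars the mean of 3 libraries and whiskers the SD. Cd14 and Lck are lower in all STZ libraries, Fcer1g and Cd5 higher, and Cd5 lies under 11 normalized counts throughout.

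Among the tested markers 4 of 31 (12.9%) had groups that did not overlap, which were Cd14, Lck, Fcer1g and Cd5, while 20.3% of all features tested had such groups. Fcer1g, the signalling chain shared by Fc receptors, was at 100.5, 228 and 198 in control and 249, 238 and 249 in STZ libraries. Every STZ library was above every control library, but the distance to the nearest control library was small and control replicate 1 lay far below both others. The log2 fold change was 0.56 (adjusted p = 0.386, SE 0.28, 95% interval -0.05 to 1.18), and 0.21 without control replicate 1. Tyrobp, the adaptor DAP12 that does the same work for other myeloid receptors, was at 91.2, 197 and 178 against 136, 171 and 216, with overlapping groups and a log2 fold change of 0.22 (adjusted p = 0.844, SE 0.30).

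The macrophage receptors and enzymes differed more between libraries of 1 group than between groups. Csf1r (chr18:57080323-57107295), the receptor that keeps macrophages alive, was at 47.2, 153 and 145 in control and 142, 106 and 116 in STZ libraries. Lyz2 (chr7:56607708-56613053), the lysozyme of myeloid cells, was at 518, 1757 and 1217 against 990, 908 and 1665. Aif1, the calcium-binding protein IBA1 used to stain macrophages, was at 48.2, 112 and 95.7 against 80.8, 93.0 and 93.4. In all 3 genes control replicate 1 was the lowest library and control replicate 2 the highest, with every STZ library between them. Their log2 fold changes were 0.25 (SE 0.38), 0.15 (SE 0.39) and 0.14 (SE 0.30), with adjusted p-values of 0.870, 0.934 and 0.911. All 3 were negative without control replicate 1, at -0.30, -0.35 and -0.22. Aif1 lies within the feature of Clic1, a chloride channel protein of many cells that was at 2106 to 2989 in control and 3295 to 5602 in STZ libraries, so reads may have been shared.

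Low-level macrophage genes were no clearer. Cd68, a lysosomal glycoprotein of macrophages, was at 7.18, 15.3 and 5.57 normalized counts in control and 13.0, 3.96 and 16.1 in STZ libraries. Cd163, the scavenger receptor for haemoglobin bound to haptoglobin, was at 6.15, 11.4 and 37.8 against 4.64, 15.8 and 33.1. Mpeg1, a pore-forming protein of macrophages, was at 4.10, 33.6 and 18.9 against 9.29, 13.8 and 20.1. Cd163 was lowest in replicate 1 and highest in replicate 3 of both groups, whereas Cd68 was not, and the groups of all 3 genes overlapped. The log2 fold changes were 0.15, -0.03 and -0.04, with adjusted p-values from 0.962 to 0.994, and Mpeg1 was at -0.83 without control replicate 1.

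The integrin chains Itgam and Itgax, which mark macrophages, granulocytes and dendritic cells, lie 10599 bases apart on chromosome 1 of rn4. Itgam was at 4.10, 6.87 and 22.3 in control and 6.50, 19.8 and 25.1 in STZ libraries, and Itgax at 0, 4.58 and 10.02 against 5.57, 10.9 and 21.1. Both overlapped between the groups, and within each group the library numbered 1 was lowest and the library numbered 3 highest. This placing was counted beyond these genes: 51.6% of the 31 markers and 18.8% of all features were lowest of their group in replicate 1 of both groups, and 35.5% and 19.4% were highest in replicate 3 of both. The median over all features, which the size factors hold nearly level, was 0.979 in control replicate 1 and 0.981 in STZ replicate 1. The olfactory receptor background had the same placing, at 2.05, 6.33 and 10.02 normalized counts in control and 1.86, 5.93 and 9.03 in STZ libraries, and its part in the low markers was not tested. Itgax had the largest log2 fold change of any marker, 1.60, with an SE of 0.89 and an adjusted p of 0.451, and 0.61 without control replicate 1. That of Itgam was 0.71 (adjusted p = 0.713, SE 0.64).

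The Fc receptors for IgG gave 2 tested genes. Fcgr1a, the high-affinity receptor, was at 20.5, 48.8 and 52.3 in control and 41.8, 22.7 and 42.2 in STZ libraries, with a log2 fold change of -0.13 (adjusted p = 0.944, SE 0.39). Fcgr3a, a low-affinity receptor of macrophages and NK cells, was at 1.03, 21.4 and 6.68 against 9.29, 25.7 and 27.1. Its log2 fold change of 1.49 (adjusted p = 0.419, SE 0.78) went with overlapping groups and was 0.59 without control replicate 1. The gene lies inside the span of Fcgr2a, a near relative at 33.8, 130 and 173 in control and 104, 134 and 160 in STZ libraries, so its share of the reads is uncertain.

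Spi1, which encodes PU.1, was too low to test, with a mean of 4.13 normalized counts. It was at 3.08, 6.87 and 10.02 in control and at 1.86, 2.97 and 0 in STZ libraries, from 3, 9 and 9 reads against 2, 3 and 0 reads. The groups did not overlap, but all STZ libraries and control replicate 1 were at or under the floor of 3 reads, so no fold is given. Over the 13 tested myeloid markers 0 were called, 9 log2 fold changes were positive and 4 negative, and their median was 0.15, or -0.22 with 5 positive and 8 negative without control replicate 1. Only 3 of the 13 had a 95% interval inside a 2-fold difference in either direction, so a difference of that size lies within the interval of the rest.

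**Figure D3:**
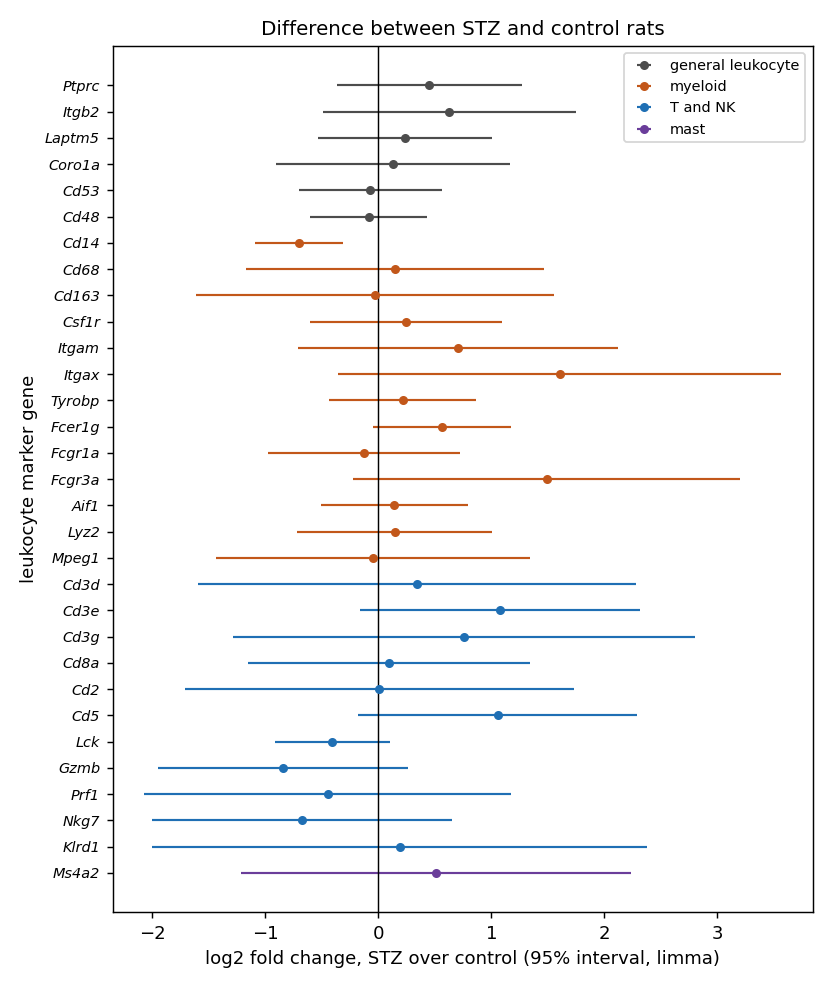
Log2 fold change (STZ minus control, log2(normalized count + 1) scale) of the 31 tested markers by class, with 95% intervals from limma; 3 libraries in each group. Only the interval of Cd14, from -1.09 to -0.31, lies wholly on one side of 0.

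Transcripts of the T cell receptor were low in the IM tip, and Cd3d, Cd3e and Cd3g were above the olfactory receptor level of the same library in 2, 4 and 3 of the 6 libraries. Cd3d, Cd3e and Cd3g, the invariant chains of the T cell receptor, form a cluster on chromosome 8 of rn4, with 1599 bases between Cd3g and Cd3d and 10511 between Cd3d and Cd3e. Cd3e was at 3.08, 13.0 and 5.57 normalized counts in control and 15.8, 19.8 and 9.04 in STZ libraries. Cd3d was at 2.05, 3.05 and 8.91 against 0.929, 8.90 and 12.05, and Cd3g at 0, 6.87 and 10.02 against 3.71, 8.90 and 8.03. The groups overlapped in all 3 genes, and at these levels a few reads move a value. The log2 fold changes of Cd3e, Cd3d and Cd3g were 1.08 (SE 0.56), 0.34 (SE 0.88) and 0.76 (SE 0.93), with adjusted p-values of 0.420, 0.929 and 0.820. Summed, the chains were at 5.13, 22.9 and 24.5 in control and 20.4, 37.6 and 29.1 in STZ libraries, a mean of 17.5 ± 10.7 against 29.0 ± 8.58 (SD, n = 3 each), with 7.33 times between the lowest and the highest library.

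Lck, the kinase that starts signalling from the T cell receptor, varied less between libraries than the chains it acts on. At chr5:148707506-148718296 on rn4 it was at 52.3, 72.5 and 72.4 normalized counts in control and 51.1, 44.5 and 51.2 in STZ libraries. The groups did not overlap, by a margin of about 1 normalized count between control replicate 1 and STZ replicate 3. The log2 fold change was -0.41 (adjusted p = 0.470, SE 0.23, 95% interval -0.92 to 0.11), and the highest library was 1.63 times the lowest. Cd5, a surface receptor that restrains T cell signals, was at 4.10, 3.05 and 4.45 against 9.29, 7.91 and 10.04. It did not overlap either, with every control library at 4 reads and the STZ libraries at 10, 8 and 10 reads. Its log2 fold change of 1.06 (adjusted p = 0.432, SE 0.56, 95% interval -0.18 to 2.29) had the opposite sign to that of Lck. The exact permutation p of Fcer1g, Lck and Cd5 was 0.1 each, the smallest possible with 3 against 3. That value follows from groups that do not overlap and is no further test.

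The remaining T cell surface markers overlapped between the groups. Cd2, an adhesion receptor of T and NK cells, was at 3.08, 8.39 and 13.4 in control and 1.86, 20.8 and 8.03 in STZ libraries. Cd8a, the co-receptor of cytotoxic T cells, was at 7.18, 7.63 and 4.45 against 10.2, 5.93 and 5.02. Their log2 fold changes were 0.01 (SE 0.78) and 0.09 (SE 0.57), with adjusted p-values of 0.999 and 0.972. Zap70, the kinase that binds the CD3 chains, was under the level tested, at 2.05, 3.81 and 3.34 against 1.86, 3.96 and 3.01. Cd4, the co-receptor of helper T cells, which rat macrophages also carry, was counted only in a feature merged with a second gene at chr4:160837687-161014038. That feature was at 13.3, 42.0 and 44.5 in control and 30.6, 28.7 and 20.1 in STZ libraries, with a log2 fold change of -0.17 (adjusted p = 0.929, SE 0.43), and its reads cannot be assigned to Cd4.

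Genes of the cytotoxic granule had negative log2 fold changes without passing the test. Gzmb, the granzyme that starts death of a target cell, was at 31.8, 117 and 69.0 normalized counts in control and 16.7, 45.5 and 56.2 in STZ libraries. Prf1, the perforin that opens the target's membrane, was at 7.18, 54.9 and 60.1 against 8.36, 30.7 and 36.1. Nkg7, a granule membrane protein, was at 20.5, 42.0 and 82.4 against 9.29, 54.4 and 32.1. All 3 were lowest in replicate 1 of both groups, and the groups overlapped. The log2 fold changes were -0.84 (adjusted p = 0.492, SE 0.50), -0.45 (adjusted p = 0.877, SE 0.74) and -0.68 (adjusted p = 0.702, SE 0.60). They were -1.33, -1.39 and -1.17 without control replicate 1, and -0.33, 0.18 and 0.0099 without STZ replicate 1, again with no call. Gzmb has a near relative on chromosome 15, Gzmc, at 37.9, 159 and 104 in control and 21.4, 71.2 and 78.3 in STZ libraries, so reads of the pair may be split uncertainly. Klrd1, the CD94 chain of NK receptors, was at 5.13, 0 and 14.5 against 3.71, 3.96 and 5.02, with a log2 fold change of 0.19 (adjusted p = 0.970, SE 0.995).

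Over the 11 tested T and NK markers 0 were called, 7 log2 fold changes were positive and 4 negative, with a median of 0.09, and -0.31 with 4 positive and 7 negative without control replicate 1. The median T and NK marker was at 0.511 of its mean in control replicate 1 and 0.594 in STZ replicate 1, and at 1.10 and 1.44 in the other controls and 1.22 and 0.933 in the other STZ libraries. The median myeloid marker was at 0.440 and 0.828 in those numbered 1, and at 1.29, 1.14, 0.896 and 1.31 in the other 4. These are descriptions of 6 libraries, with no test.

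**Figure D4:**
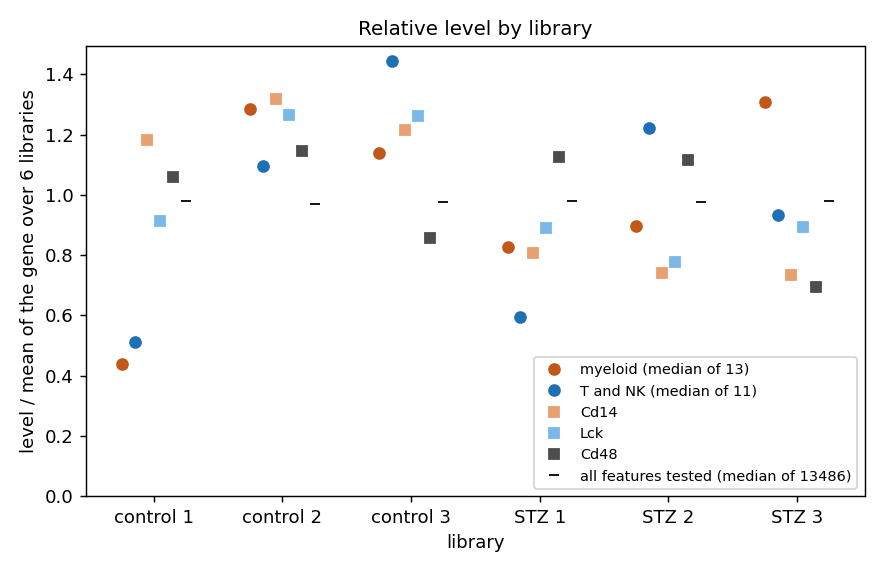
Level of each library divided by the gene's mean over the 6 libraries (linear axis from 0), as the median over the tested myeloid (13) and T and NK (11) markers and over all 13486 features tested, and for Cd14, Lck and Cd48 alone. Control replicate 1 is at 0.440 for the myeloid median and 1.18 for Cd14, while the median of all features stays between 0.970 and 0.981. The size factors hold that last median nearly level by design.

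Of the mast cell markers, Ms4a2 was above the olfactory receptor level in 5 of the 6 libraries and Cpa3 in 0. Ms4a2, the beta chain of the high-affinity IgE receptor, was at 2.05, 10.7 and 26.7 normalized counts in control and 8.36, 7.91 and 33.1 in STZ libraries. The groups overlapped, with 16.2 times between the lowest and the highest library. The log2 fold change was 0.51 (adjusted p = 0.866, SE 0.78), and -0.34 without control replicate 1. Cpa3, the mast cell carboxypeptidase, never exceeded the floor of 3 reads, at 0, 0.763 and 1.11 against 0, 1.98 and 2.01.

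Further leukocyte genes, from wider lists, gave a single call by limma, Gpnmb. Of 33 other general leukocyte genes 28 had a row and 19 were tested, with 0 calls by limma and 1 at an unadjusted p under 0.05. Of 43 other T and NK genes 35 had a row and 19 were tested, with 0 calls and 3 at an unadjusted p under 0.05, or 15.8% beside the 14.7% of all features. Those 3 were chosen after their values were seen: the chemokine Ccl5 at -1.15 (SE 0.42), and the T cell signalling proteins Txk at 0.83 (SE 0.24) and Skap1 at 0.70 (SE 0.27), with adjusted p-values of 0.223, 0.116 and 0.253. Of 51 other macrophage and dendritic cell genes 39 had a row and 27 were tested. Of these, 0 were called higher and 1 lower, beside 2.1% of all features called. At an unadjusted p under 0.05 there were 3 (11.1%, beside 14.7% of all features). The call was Gpnmb, a glycoprotein of macrophages laden with lipid that some other cells also make, at 302, 524 and 196 normalized counts in control and 84.5, 64.3 and 97.4 in STZ libraries. The groups did not overlap, and Gpnmb fell by 1.95 on the log2 scale (SE 0.32, adjusted p = 0.0125 by limma). The other 2 of the 3, named after their values were seen, had positive log2 fold changes: the lectin Lgals3 at 0.89 (adjusted p = 0.186) and the scavenger receptor Msr1 at 0.84 (adjusted p = 0.268). The neutrophil, mast and basophil, and B and plasma cell lists gave 0 calls in 3, 5 and 3 tested genes, of 15, 13 and 14 with a row, and 0, 1 and 0 at an unadjusted p under 0.05.

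Markers of other cells that moved with the groups are given as values, and their part in the leukocyte levels was not tested. Of all features tested, 2.1% were called and 14.7% were at an unadjusted p under 0.05. At that unadjusted level were 80% of the tested endothelial, 53.8% of the collecting duct and 50% of the interstitial genes. The shares were 50% for the proximal tubule and thick limb list and 40% for the urothelial list. Of 10 endothelial genes 1 was called higher and 2 lower. The higher was Vwf, the clotting factor of endothelium and platelets, with a log2 fold change of 1.97 (adjusted p = 0.0264), and the lower were Emcn, a sialomucin of capillaries and veins, at -1.38 (adjusted p = 0.00679), and Plvap, a protein of capillary openings, at -1.01 (adjusted p = 0.0290); Vwf and Plvap were named after their values were seen. The endothelial sum was 8409 to 10425 normalized counts in control and 5026 to 5591 in STZ libraries, but 3225 to 3930 against 2989 to 3588 without Emcn, where the groups overlapped. Of 6 tested genes listed for proximal tubule and thick limb, segments that lie outside the IM tip, 2 were called lower. The 7 with a row summed to 1224 to 2057 in control and 360 to 695 in STZ libraries. Not all of them are confined to those segments, Aqp1 among these. Urothelial genes gave 2 calls higher of 5 tested, with sums of 85.4 to 132 in control and 440 to 517 in STZ libraries. Of 13 collecting duct genes 1 was called higher, and of 10 interstitial genes 3 were called higher and 1 lower. The sums of the tubule and urothelial lists did not overlap between the groups, also without Umod or Upk3a respectively, while those of the last 2 lists overlapped.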

How the data were processed

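The 6 libraries held IM tip RNA of 3 control and 3 STZ samples; cDNA was amplified by PCR without molecular identifiers, so read floors cover counting error only. The authors aligned reads to rn4 with STAR 2.3.1t, counted uniquely mapped reads per feature and divided them by a DESeq size factor; the deposited signal is this normalized count. DESeq 1.16.0 is named in the submitters' processing notes. Which program counted the reads, and whether by strand, is not given in the sources used here. Dividing by each library's step gave whole reads for 100.0% of values (tolerance 1e-06), 3412311 to 5575171 per library.

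The 13486 of 27321 features whose mean reached 5 normalized counts were compared with limma 3.58.1 in R 4.3.3 (log2(normalized count + 1), intensity trend, Benjamini-Hochberg threshold of 0.05 over all features). No count model was the main test, because the deposited values are not raw counts. As alternatives run on whole reads, edgeR 4.0.16 (quasi-likelihood test after TMM) called 287 features and DESeq2 1.42.0 called 597. Also tried were a pseudocount of 0.5 or 5, a minimum mean of 1 or 20, no filter, equal library totals, quantile normalization, no intensity trend, the replicate number as a block, and each library left out. On simulated libraries with 200 of 13486 features changed by a log2 of 2, limma recovered 83% with 5 false calls. The simulated libraries were independent, and no marker reached that change, the largest being 1.60 for Itgax. Recovery of differences as small as those of the markers was not assessed.

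Replicates are separate samples in the labels. Each limma p-value sets the difference between groups against the spread between libraries within groups, moderated over features. It takes no account of lane, which cannot be told apart from group. The text names all 39 markers; members of the other leukocyte lists (general, macrophage and dendritic cell, neutrophil, T and NK, mast and basophil, B and plasma cell) that passed; and at most 3 genes of the highest mean from each blood and tissue list (red cell and platelet, collecting duct, endothelium, interstitium and pericyte, proximal tubule and thick limb, urothelium). Outside this rule are Ccl5, Txk, Skap1, Lgals3 and Msr1, which did not pass, and Vwf and Plvap, all named after their values were seen. Neighbouring and merged genes are named beside a marker whose reads they may share. The members and lists were chosen with earlier results of these data known. Start regions came from RefSeq (GRCr8). Figures were made with Python 3.11.15 and matplotlib 3.10.9.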

Additional observations from a re-analysis of the deposited data

How the results depend on the processing

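Over all features, 283 were called, and 522 with quantile normalization, 31 without the intensity trend, 597 with DESeq2, 561 with the replicate block and 86 (without STZ replicate 2) to 341 (without control replicate 3) with 1 library left out. Leaving out control replicate 1 or 2 gave 185 and 104, and STZ replicate 1 or 3 gave 145 and 163. The calls among the 31 markers were 0 and became 1, Cd14, with quantile normalization, DESeq2 and a minimum mean of 20, and stayed at 0 in the other 14 alternatives, the replicate block among them (Cd14 adjusted p = 0.0513). The replicate numbers are shared by different animals and the labels state no pairing, so the numbers were not taken as pairs. Deviations from the group means of same-numbered libraries still correlated at 0.395, -0.061 and 0.323 over 9315 features. The main test does not model what same-numbered libraries share, and its source was not tested.

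Of 510 marker fold changes under alternatives, 462 kept their sign and side of the threshold, 3 passed it (Cd14) and 45 changed sign. A missing adjusted p with DESeq2, as for Cd68, Itgam and Itgax, was counted as not passing. Of 31 markers 10 never changed sign. Signs turned in Coro1a with edgeR and DESeq2 (-0.11 in both), in Cd8a with quantile normalization (-0.0057), in Cd2 with a pseudocount of 0.5 (-0.014) and equal library totals (-0.017), and in Klrd1 with a pseudocount of 5 (-0.11), quantile normalization (-0.027), edgeR (-0.55) and DESeq2 (-0.61). With 1 library left out the log2 fold change ran from -0.0027 to 1.04 for Itgb2, -0.23 to 0.54 for Laptm5, -0.44 to 0.60 for Coro1a, -0.40 to 0.15 for Cd53, -0.20 to 0.15 for Cd48, -0.20 to 0.69 for Cd68, -0.63 to 0.66 for Cd163, -0.30 to 0.54 for Csf1r, -0.13 to 0.42 for Tyrobp, -0.55 to 0.16 for Fcgr1a, -0.22 to 0.38 for Aif1, -0.35 to 0.53 for Lyz2, -0.83 to 0.55 for Mpeg1, -0.0096 to 1.19 for Cd3d, -0.31 to 1.42 for Cd3g, -0.17 to 0.28 for Cd8a, -0.69 to 0.78 for Cd2, -1.39 to 0.18 for Prf1, -1.20 to 0.0099 for Nkg7, -0.90 to 0.40 for Klrd1 and -0.34 to 1.25 for Ms4a2, crossing 0 in each. The median of the T and NK markers was -0.0057 with quantile normalization and -0.56 with a minimum mean of 20. That minimum left only Lck, Gzmb, Prf1 and Nkg7 of the class, with their negative log2 fold changes unchanged. The cause of the sign changes was not tested. Depth limits the low markers: 23 of the 35 with a row were above 3 reads in every library.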
